A study of Mus musculus with 12 samples.

Results

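The genes described here are the solute carriers, the membrane transporters whose mouse symbols begin with Slc and a family number. The array named 347 such genes through 656 probe sets. A gene was kept where a probe set reached a signal of 100 on at least 4 of the 12 arrays, which left 175 genes in 45 families among the 10269 genes of all kinds that passed the same filter. The members were therefore chosen by their signal over all 12 arrays together and not by a difference between groups. Of the 175, 170 were named as transporters and 5 (Slc2a4rg-ps, Slc4a1ap, Slc7a6os, Slc9a3r1 and Slc9a3r2) were named after a transporter that they regulate, bind or neighbour. On all 12 arrays 123 members reached 100. Of the 172 Slc genes that were not kept, 143 reached 100 on no array and 29 on 1 to 3 arrays. The genes nearest the limit were Slc35g1, Slc6a17 and Slc6a2 inside it, where the signal that 4 arrays reached was 103.2, 103.3 and 104.0, and Slc14a1, Slc16a11 and Slc36a3 outside it, with 95.95, 95.46 and 94.2. Slc39a4 was the single member that reached 100 in 1 group alone, the cells with transmembrane TNF, so the filter itself favoured a difference there. Slc2a6, Slc5a6 and Slc11a1 reached 100 in both TNF groups but on no control array. Slc26a11, Slc45a3 and Slc2a4rg-ps reached it on no soluble TNF array, and Slc35f2 on no array of the cells with transmembrane TNF. For these the filter favoured a difference as well.

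All samples were cultured endothelial cells of wild-type newborn mice, with 4 arrays in each of 3 groups. Control cells were mock-transfected. The second group was stably transfected with mutant murine TNF that stays in the membrane because it cannot be cleaved (tmTNF), which the labels call chronic activation. The third group received soluble TNF at 20 ng/ml for 4 h, which the labels call transient activation. Tumour necrosis factor (TNF) is an inflammatory cytokine that switches endothelium to an adhesive, leaky state. The labels do not say whether the transfected cells were clones or pools, whether the soluble TNF cells were also transfected, and whether each replicate came from its own culture or animal. The p-values therefore reflect the spread among these arrays and nothing wider, and that spread may be technical. In cultures of mixed cells, fewer cells of a type and less RNA per cell cannot be told apart.

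Solute carriers move ions, nutrients, metals and metabolites across the plasma membrane and the membranes of organelles, either down a gradient or by coupling to sodium, protons or another solute. The Slc12 cotransporters set intracellular chloride and cell volume. Amino acid carriers of the Slc1, Slc6, Slc7 and Slc38 families feed protein and glutathione synthesis, Slc2 carriers admit glucose, Slc39 and Slc30 carriers raise and lower cytosolic zinc, Slc25 carriers serve the inner mitochondrial membrane and Slc35 carriers supply nucleotide sugars to the Golgi. In endothelium, glucose, amino acid and anion carriers also carry solutes between blood and tissue.

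A few facts of the arrays bear on every comparison. Between 17652 and 19174 probe sets per array reached 100. The ratio of the 3' to the 5' Actb signal, a sign of RNA quality, was 1.185 to 1.291 in controls, 1.119 to 1.29 in tmTNF cells and 1.101 to 1.156 in soluble TNF cells, so the soluble TNF arrays all lay below the controls. Of 20 listed endothelial markers 19 were on the array, and each of these reached 100 on 4 or more arrays. Their summed signal ran from 23650 to 167462 in controls, 34319 to 183570 in tmTNF cells and 54942 to 121460 in soluble TNF cells, and was lowest on control 3, tmTNF 2 and tmTNF 4. Those 3 arrays also had the highest Krt19 signals, 7120, 11490 and 5564, against 65.4 to 3244 on the other 9. Krt19 is a keratin of mesothelial and epithelial cells. Msln, a further mesothelial marker, was 3412, 2460 and 1288 on the 3 arrays, and 1578 on soluble TNF 4. Of 10 listed mesothelial markers 7 stayed under 100 on every array. Summed signals of 3 Y-linked genes were 968 to 2508 on tmTNF arrays and at most 87 on the other 8, so the effect of tmTNF and this difference in the source of the cells cannot be told apart. The single Tnf probe set stayed under 100 on every array, with 7.33 to 25.7 in controls, 13.8, 9.99, 77.2 and 62.1 in tmTNF cells and 6.18 to 14.3 in soluble TNF cells. Its coverage of the transfected construct is not given in the labels, so it does not check the labels.

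A single solute carrier gene, Slc12a2, passed the threshold in any comparison. Most of the others had lower values after soluble TNF than in control and higher values in tmTNF cells than in soluble TNF cells, without passing it. All tests are limma fits over the 10269 genes with an adjusted p threshold of 0.05. In soluble TNF against control, 1 of 175 members passed (0.571%), against 0.039% of all genes. At an unadjusted p under 0.05, 25 members were lower and 5 higher, or 14.3% and 2.86%, against 7.28% and 5.4% of all genes. The 25 became 12 without soluble TNF 2 (6.86%, against 4.78% of all genes) and 14 without control 1 (8%, against 5.42%). They became 15 without soluble TNF 1 (8.57%, against 5.55%) or without soluble TNF 3 (8.57%, against 5.91%). The 5 became 3 without control 1 (1.71%, against 3.91%). The 4 soluble TNF arrays lay wholly below the controls for 11 members (6.29%, against 4.44% of all genes) and wholly above for 6 (3.43%, against 3.67%). The median log2 fold change was -0.20 over members and -0.05 over all genes. Values below 0 were found for 121 of 175 members and for 5562 of all 10269 genes.

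In tmTNF against control, 0 members passed, against 0.195% of all genes. At an unadjusted p under 0.05, 12 members were higher (6.86%, against 4.81% of all genes) and 5 lower (2.86%, against 2.75%). The 12 became 5 without control 4 (2.86%, against 3.84% of all genes) and 7 without tmTNF 2 (4%, against 3.62%). The 5 became 9 without tmTNF 1 (5.14%, against 4.41%) and 2 without tmTNF 2 (1.14%, against 1.85%). They became 3 without tmTNF 3 (1.71%, against 2.89%) or without tmTNF 4 (1.71%, against 2.25%). The tmTNF arrays lay wholly above the controls for 4 members, Slc39a4, Slc25a22, Slc5a6 and Slc11a1 (2.29%, against 2.19% of all genes). Of the 4, Slc39a4 reached 100 in tmTNF cells alone, and Slc5a6 and Slc11a1 reached it on no control array. The filter favoured a difference for these. The tmTNF arrays lay wholly below the controls for Slc22a17 (0.571%, against 0.984%). The median was 0.10 over members and 0.03 over all genes. These shares were near those of all genes.

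In tmTNF against soluble TNF, 0 members passed, against 1.22% of all genes, of which 125 passed. At an unadjusted p under 0.05, 25 members were higher in tmTNF cells and 4 lower (14.3% and 2.29%), against 12.4% and 7.49% of all genes. The 4 became 10 without tmTNF 1 (5.71%, against 7.84% of all genes). They became 2 without tmTNF 2 (1.14%, against 5.88%) or without soluble TNF 1 (1.14%, against 5.05%). The groups did not overlap for 24 members with tmTNF higher (13.7%, against 10.3% of all genes) and 2 with tmTNF lower (1.14%, against 5.86%), and the median was 0.34 over members and 0.08 over all genes. This comparison shares the tmTNF arrays with tmTNF against control and the soluble TNF arrays with soluble TNF against control, so the 3 sets of values are not independent. The split between directions depended on scaling. With arrays set to the same median, the median of all genes moved to -0.12, 0.04 and -0.15 for tmTNF against control, soluble TNF against control and tmTNF against soluble TNF, and the members higher and lower at an unadjusted p under 0.05 became 3 and 7, 6 and 16, and 11 and 13 of 174. These were 1.72% and 4.02%, 3.45% and 9.2%, and 6.32% and 7.47% of members, against 2.44% and 6.11%, 6.53% and 4.76%, and 5.51% and 15.7% of all genes. The members' medians under that scaling were -0.04, -0.13 and 0.11.

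**Figure D1:**
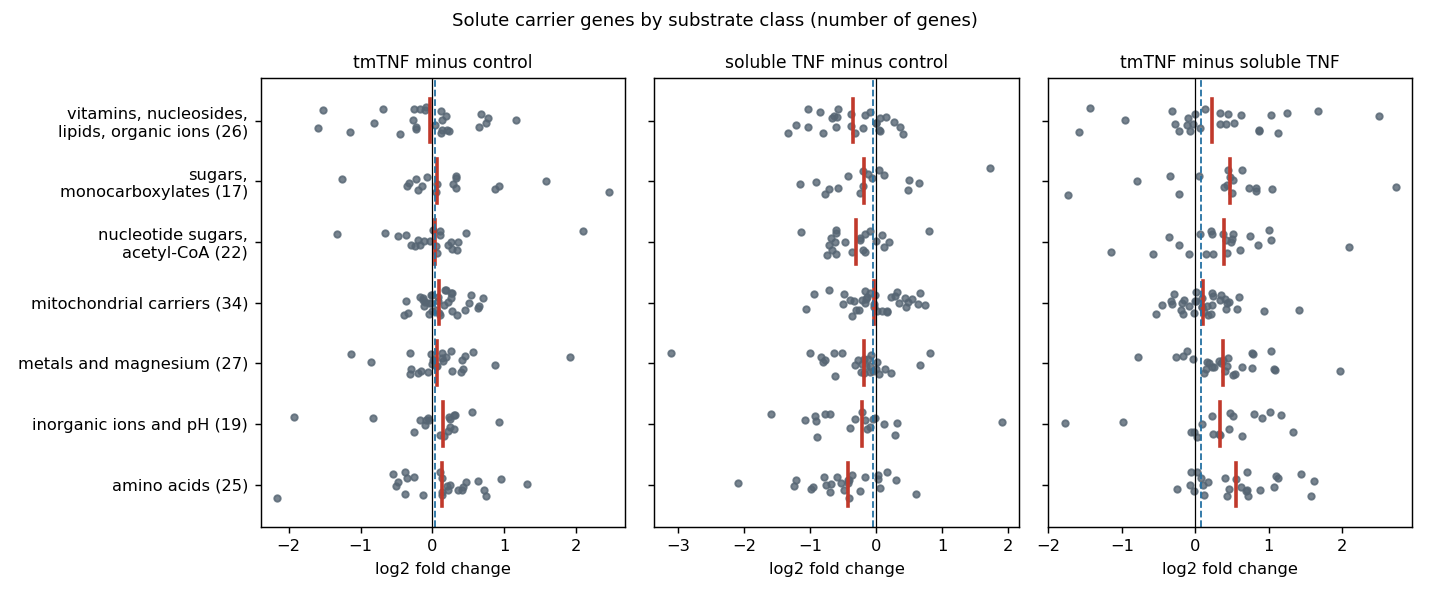
Log2 fold changes of 170 transporter genes (points) by substrate class, on the log2(signal + 16) scale, in the 3 comparisons. Red bars are class medians, dashed lines the median of all 10269 genes and solid lines 0; class medians lie below 0 for soluble TNF against control and above 0 for tmTNF against soluble TNF, with mitochondrial carriers closest to 0 in both.

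Slc12a2 encodes NKCC1, the cotransporter that loads cells with sodium, potassium and chloride and restores cell volume after shrinkage. Its signals were 1462, 2176, 1546 and 3949 in controls, 3590, 4862, 3522 and 4135 in tmTNF cells and 7194, 8875, 7788 and 8004 in soluble TNF cells. All 4 soluble TNF arrays lay above every other array, and the tmTNF arrays lay above 3 of the 4 controls, control 4 being the exception. The group means were 2283 ± 1160, 4027 ± 620 and 7965 ± 696 (signal, SD, n = 4). Slc12a2 rose 3.76-fold with soluble TNF (log2 1.91 ± 0.27, SE, adjusted p = 0.0359). It differed from control by 0.92 ± 0.27 in tmTNF cells (adjusted p = 0.33), and tmTNF differed from soluble TNF by -0.99 ± 0.27 (adjusted p = 0.0932), neither past the threshold.

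The other 2 Slc12a2 probe sets gave the same order of groups. The first had 215, 271, 269 and 623 in controls, 565, 736, 526 and 747 in tmTNF cells and 1039, 1818, 1277 and 1189 in soluble TNF cells. The second had 286, 371, 364 and 758, then 650, 1017, 708 and 992, then 887, 2297, 1728 and 1321. On both, as on the main probe set, control 4 stood above the other controls and inside the range of the tmTNF arrays. On the second probe set soluble TNF 1 also fell inside the tmTNF range. The log2 differences from control on these 2 probe sets were 0.97 and 0.98 in tmTNF cells and 1.79 to 1.99 in soluble TNF cells. The call was narrow. The difference stayed between 1.68 and 2.21 under every alternative, but the adjusted p was above 0.05 when any of the 12 arrays other than control 4 was left out (0.06 to 0.174). It was 0.0743 with the mean of the probe sets, 0.101 with the 2 groups alone, 0.0686 without an intensity trend and 0.0596 without control 3, tmTNF 2 and tmTNF 4. Without control 4 the soluble TNF value was 2.21 (adjusted p = 0.00175), and tmTNF against control, at 1.22, passed as well (adjusted p = 0.0386).

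**Figure D2:**
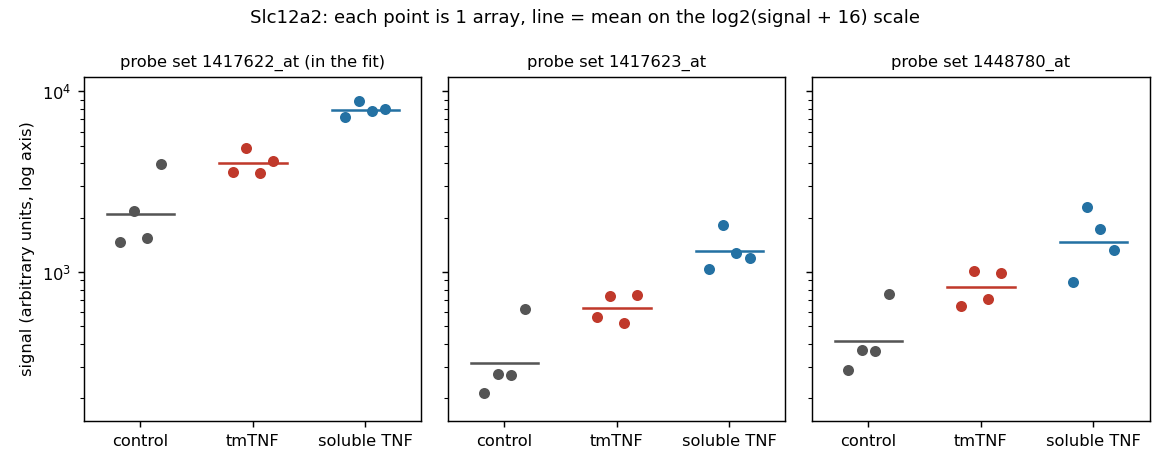
Slc12a2 signal on a log axis for its 3 probe sets, with 4 arrays (points) per group and the mean on the log2(signal + 16) scale (line). On each probe set the group means run from control through tmTNF to soluble TNF, and 1 control array stands apart at the level of the tmTNF arrays.

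Of the 6 Slc12 members, Slc12a2 was the 1 with a positive value in soluble TNF against control. Slc12a4, a potassium chloride cotransporter that moves chloride outward, had 746 to 992 in controls, 648 to 990 in tmTNF cells and 747 to 903 in soluble TNF cells. Slc12a9, a less well known relative, had 278, 445, 431 and 389 in controls, 459, 359, 666 and 374 in tmTNF cells and 206, 168, 146 and 265 in soluble TNF cells. All 4 soluble TNF arrays were below the other 8 for Slc12a9, by -0.93 ± 0.27 against control (adjusted p = 0.249), and tmTNF exceeded soluble TNF by 1.17 ± 0.27 (adjusted p = 0.0579, and 0.0419 without control 1). Slc12a5, the potassium chloride cotransporter best known from neurons, ran from 44.5 to 2039 within the controls alone. Of 13 measured genes on a list of WNK kinases, volume-regulated channels and sodium pump subunits that act with these cotransporters, 0 passed in either comparison with control and at an unadjusted p under 0.05 there were 1 higher and 2 lower in tmTNF cells (all genes 4.81% and 2.75%) and 1 higher and 1 lower after soluble TNF (all genes 5.4% and 7.28%). Lrrc8c, a subunit of the volume-regulated anion channel, was the listed gene whose soluble TNF arrays all lay above control, with 1375, 1044, 736 and 1956 in controls, 1886, 1037, 1361 and 1394 in tmTNF cells and 2247, 3761, 3899 and 2372 in soluble TNF cells (log2 1.30 ± 0.32, adjusted p = 0.209). Lrrc8a, another subunit of that channel, ran the other way, with 1793, 2008, 2586 and 1450 in controls, 1060, 1602, 1884 and 925.5 in tmTNF cells and 985, 992, 866 and 1347 in soluble TNF cells. Its soluble TNF arrays all lay below control (-0.88 ± 0.27, adjusted p = 0.268), and the subunit Lrrc8d overlapped control (-0.38 ± 0.44). Atp1b1, the beta 1 subunit of the sodium pump whose gradient drives many solute carriers, had 37.7 to 107 in controls, 823, 512, 167 and 1988 in tmTNF cells and 27.2 to 83.1 in soluble TNF cells. It was the listed gene that passed for tmTNF against soluble TNF, where it was at least 5.47-fold higher (fitted log2 3.22 ± 0.61, adjusted p = 0.0325). It was also the 1 of 9 measured genes on a list of ancillary proteins of transporters that passed there (1.22% of all genes did). Against control 0 of the 9 passed. At an unadjusted p under 0.05, 2 were higher in tmTNF cells and 1 lower after soluble TNF (all genes 4.81% and 7.28%). Both lists were drawn up with earlier results of these data known.

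The remaining ion carriers mostly had lower values after soluble TNF. Of 19 members that carry inorganic ions or protons, 15 had a negative log2 value in soluble TNF against control and 5 of these an unadjusted p under 0.05, and the class median was -0.21. Over all genes 5562 of 10269 were negative, 7.28% were lower at that p, and the median was -0.05. Slc24a3, a sodium-calcium exchanger that also moves potassium, had 668, 264, 515 and 444 in controls, 464, 662, 209 and 300 in tmTNF cells and 155, 83.2, 113 and 246 in soluble TNF cells. Its soluble TNF arrays lay below all controls (-1.59 ± 0.41, adjusted p = 0.22) and overlapped the tmTNF arrays. Slc26a11, an anion transporter that carries sulfate and chloride, had 241, 154, 217 and 117 in controls, 132, 188, 186 and 123 in tmTNF cells and 87.7, 83.5, 57.0 and 75.1 in soluble TNF cells. The soluble TNF arrays were again the lowest 4, and all were under 100, which makes control at least 1.66-fold higher (fitted log2 -1.08 ± 0.30, adjusted p = 0.241). Slc9a5, a sodium-hydrogen exchanger, had 134 to 206 in controls, 150 to 241 in tmTNF cells and 56.5 to 131 in soluble TNF cells, so its soluble TNF arrays also lay below the rest (-0.77 ± 0.29, adjusted p = 0.327). For the sodium phosphate cotransporters the groups overlapped: Slc20a1 had 3863 to 14890, 3700 to 8796 and 1921 to 4261, and Slc20a2 had 578 to 1181, 915 to 1458 and 786 to 1050, in controls, tmTNF and soluble TNF cells.

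**Figure D3:**
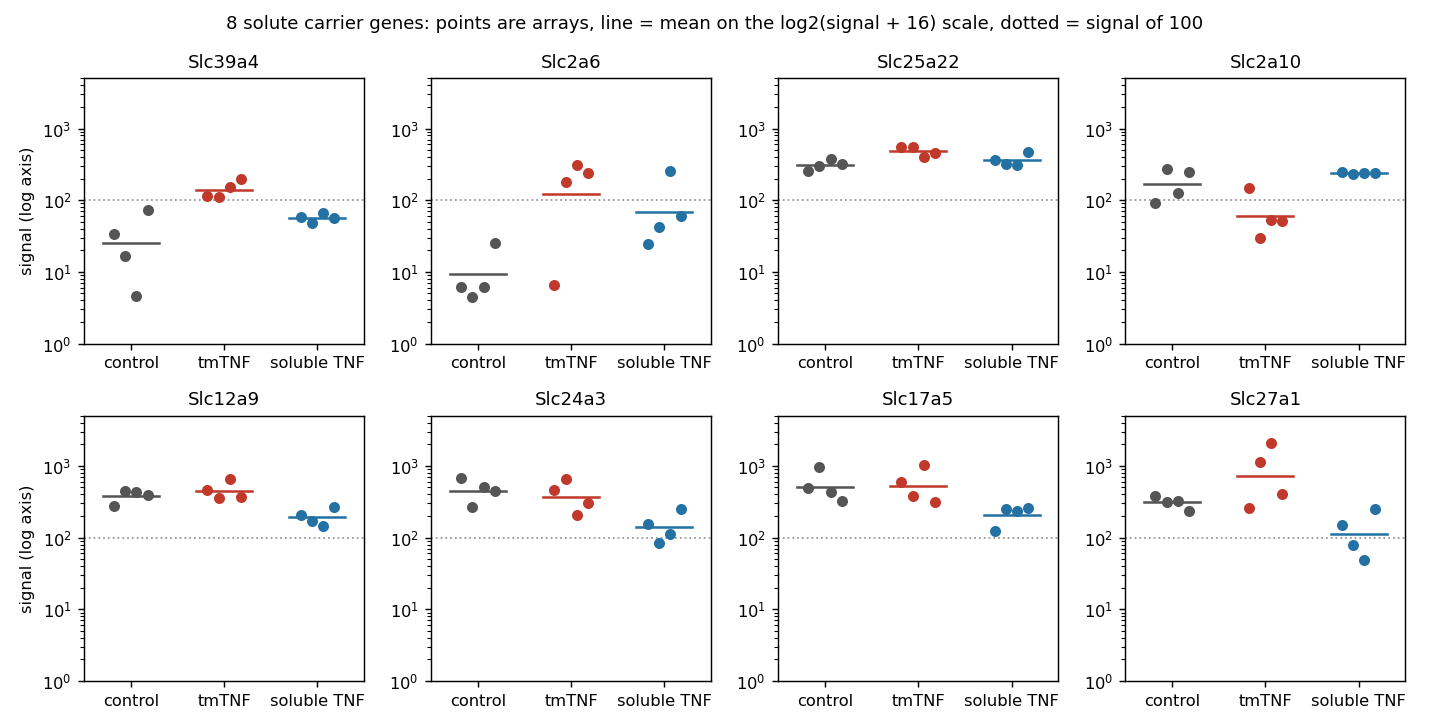
Signals of 8 solute carrier genes on log axes by group, with 4 arrays (points) per group, the mean on the log2(signal + 16) scale (line) and the limit of 100 (dotted). The soluble TNF arrays are the lowest 4 of the 12 for Slc12a9 and Slc17a5, and the tmTNF arrays the highest 4 for Slc39a4, where control and soluble TNF arrays stay under 100.

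Amino acid carriers mostly had higher values in tmTNF cells than in soluble TNF cells. Of 25 members in this class 0 passed in any comparison. In tmTNF against soluble TNF 7 had an unadjusted p under 0.05, all higher in tmTNF cells (12.4% of all genes were), the groups did not overlap for 6 (10.3% of all genes), and the class median was 0.55 (0.08 over all genes). Against control the medians were 0.14 with tmTNF and -0.43 with soluble TNF (0.03 and -0.05 over all genes). At an unadjusted p under 0.05, 2 were higher and 1 lower with tmTNF, and 0 higher and 4 lower with soluble TNF. Of all genes 4.81% and 2.75%, and 5.4% and 7.28%, were. A list of amino acid transporters that ATF4 is known to induce, ATF4 being the transcription factor of the amino acid response, had 9 of 10 genes measured. Of these 9, 5 had an unadjusted p under 0.05 for tmTNF against soluble TNF, all higher in tmTNF cells (12.4% of all genes were), with a median of 1.11, and 0 passed. The medians against control were 0.42 with tmTNF and -0.68 with soluble TNF. The list was drawn up with earlier results of these data known, so its counts and medians are not independent of them.

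Controls differed widely among themselves for several of these carriers. Slc7a5, the light chain of the large neutral amino acid transporter LAT1, had 2853, 523, 4550 and 490 in controls, 1710, 4926, 1277 and 2316 in tmTNF cells and 1323, 1128, 714 and 1158 in soluble TNF cells. Its partner Slc3a2, the CD98 heavy chain that carries the light chain to the surface, had 8066, 2915, 11260 and 3884 in controls, 8697, 11560, 7605 and 4361 in tmTNF cells and 2898, 3858, 3570 and 3844 in soluble TNF cells. Controls 1 and 3 were high and controls 2 and 4 low for both chains, so each comparison with control overlapped, whereas tmTNF and soluble TNF arrays did not overlap for Slc3a2 (1.11 ± 0.40, adjusted p = 0.164). Slc7a11, the cystine-glutamate exchanger xCT that supplies cysteine for glutathione, had 1876, 79.1, 655 and 248 in controls, 549, 647, 540 and 400 in tmTNF cells and 182, 81.6, 168 and 292 in soluble TNF cells. The tmTNF arrays lay above every soluble TNF array (1.57 ± 0.72, adjusted p = 0.249) and within the range of the controls.

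Controls 1 and 3 were also the higher controls for Slc1a4, Slc7a1 and Slc6a9. Slc1a4, the neutral amino acid exchanger ASCT1, had 848, 428, 1718 and 219 in controls, 802, 2229, 850 and 755 in tmTNF cells and 360, 376, 455 and 315 in soluble TNF cells (tmTNF against soluble TNF 1.44 ± 0.53, adjusted p = 0.174). Slc7a1, the arginine and lysine transporter CAT1, had 3126, 1792, 5828 and 1579, then 3753, 8922, 5422 and 4078, then 2499, 2450, 2085 and 2495 (1.13 ± 0.38, adjusted p = 0.145). Another Slc7a1 probe set gave a smaller value, 0.63 ± 0.34. Slc6a9, the glycine transporter GLYT1, had 2209, 359, 896 and 290, then 842, 1727, 1051 and 829, then 275, 377, 257 and 470 (1.62 ± 0.53, adjusted p = 0.137). For these 3 genes every tmTNF array exceeded every soluble TNF array, and tmTNF 2 was the highest tmTNF array. The groups overlapped for the glutamine carriers, for which control 4 exceeded control 3, Slc38a2 with 3894 to 6776, 5591 to 7449 and 5242 to 6197, and Slc1a5 with 320 to 1125, 393 to 1003 and 238 to 700 over controls, tmTNF cells and soluble TNF cells. Slc7a3, the cationic transporter CAT3, ran the other way, with 1214, 143, 2498 and 82.5 in controls and at most 187 on the 8 TNF arrays, and its log2 values of -2.16 ± 0.88 and -2.10 ± 0.88 rested on controls 1 and 3.

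Genes outside the family that were picked after their values were seen followed the same arrays. Trib3, a pseudokinase induced in the amino acid response, had 6915, 813, 7158 and 390 in controls, 1991, 9005, 3674 and 1876 in tmTNF cells and 357, 599, 419 and 368 in soluble TNF cells. Asns, asparagine synthetase, had 13360, 5096, 12920 and 2947, then 10130, 14520, 11340 and 6343, then 4359, 6998, 5131 and 3461. In both, controls 1 and 3 were high and tmTNF 2 was the highest of its group, as for Slc7a5, Slc1a4 and Slc7a1. The part of culture state in these differences was not tested.

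**Figure D4:**
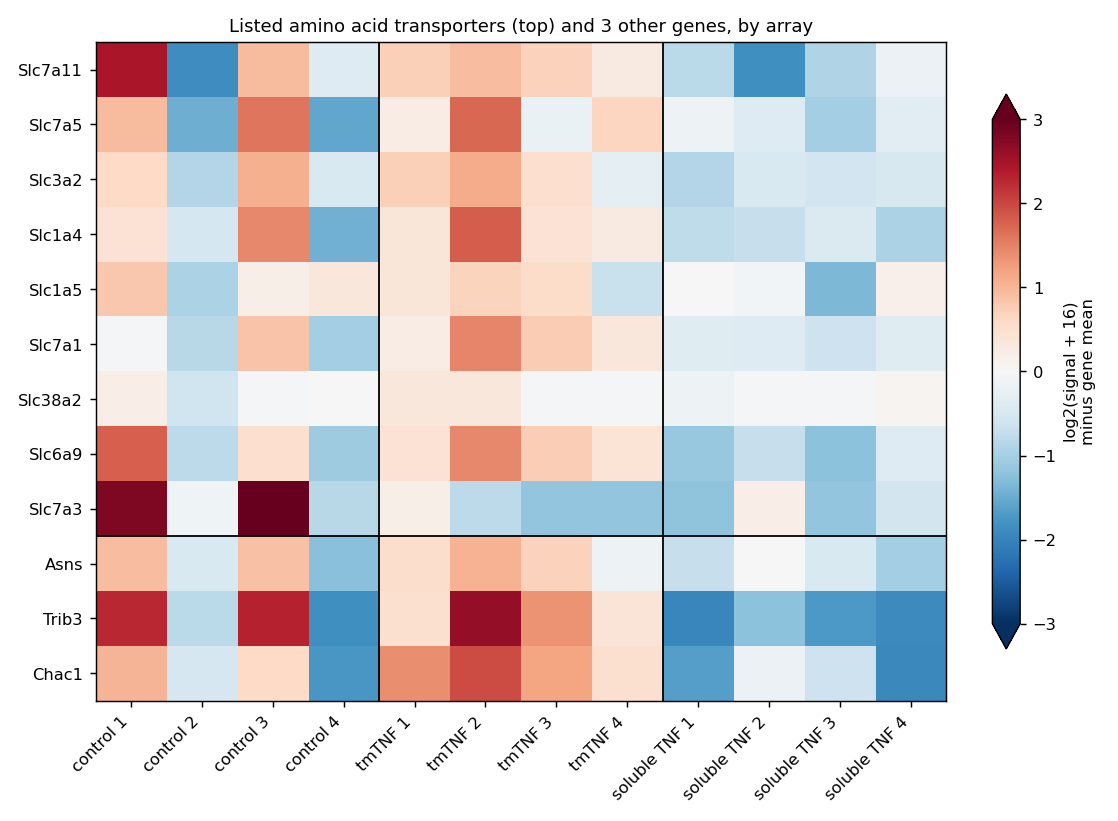
Heat map of log2(signal + 16) minus each gene's mean for 9 listed amino acid transporters and 3 further genes (rows) on the 12 arrays (columns); colours saturate at 3 in either direction. Most of these genes are high on control 1, control 3 and tmTNF 2 and low on control 2, control 4 and the soluble TNF arrays.

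The promoter windows of 2 of these carriers hold a short form of the ATF4 recognition sequence. They are shown because they were the listed carriers with a window that held it. RefSeq windows (GRCm38.p6) were found for 137 of the 175 members and for 6 of the 9 listed carriers. TGATGNAA was searched on both strands in windows of 250 bases before to 50 after the start. It was present in 2 of the 6, in 5 of the 137 members (3.65%) and in 3.97% of all 32851 windows. The 137 members had 190 windows, so the share of members and the share of windows are unlike measures. The stretches printed run from 150 bases before the start to 10 after it, 5′ to 3′ on the gene's strand, with the motif in capitals. Slc7a11 holds it on both strands, with first bases 66 and 47 bases before the start (chr3:50443604-50443763, minus strand), and Slc1a4 holds it on the opposite strand from 4 bases before the start (chr11:20332704-20332863, minus strand). A match is a description of the letters and not of binding.
Slc7a11: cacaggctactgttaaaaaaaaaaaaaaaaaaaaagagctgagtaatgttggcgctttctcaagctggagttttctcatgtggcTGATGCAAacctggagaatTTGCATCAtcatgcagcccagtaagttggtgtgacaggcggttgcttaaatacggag
Slc1a4: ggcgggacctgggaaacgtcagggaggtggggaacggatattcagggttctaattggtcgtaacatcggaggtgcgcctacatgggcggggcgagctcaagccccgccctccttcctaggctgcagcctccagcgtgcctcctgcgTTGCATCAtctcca

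Of the 25 amino acid carriers 19 had a negative value after soluble TNF against control and 6 a positive one. On the ATF4 list 8 of 9 were negative, and over all genes 5562 of 10269 were. The carriers described next belong to the class but not to the list. Slc43a3, a purine nucleobase carrier in an amino acid family, had 4931, 4033, 11410 and 4218 in controls, 2884, 7412, 5798 and 1849 in tmTNF cells and 1688, 2478, 3771 and 1926 in soluble TNF cells. Its soluble TNF arrays lay below all controls (-1.24 ± 0.46, adjusted p = 0.327). Slc36a1 (-0.96 ± 0.38), a proton-coupled exporter of amino acids from lysosomes, had 276 to 587 in controls, 223 to 634 in tmTNF cells and 154 to 321 in soluble TNF cells, which overlapped. The taurine carrier Slc6a6 (log2 0.17 after soluble TNF) had 204 to 883, 409 to 1024 and 287 to 1460, with no separation between groups.

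Among 17 carriers of sugars and monocarboxylates, glucose transporters of the Slc2 family differed from each other. Of the 17, 0 passed, and at an unadjusted p under 0.05 there were 3 higher and 1 lower in tmTNF cells, 0 higher and 3 lower after soluble TNF, and 5 higher and 1 lower in tmTNF against soluble TNF (all genes 4.81% and 2.75%, 5.4% and 7.28%, 12.4% and 7.49%). Slc2a1, the main endothelial glucose transporter GLUT1, had 7366, 1688, 4864 and 1835 in controls, 2156, 9604, 3030 and 4412 in tmTNF cells and 1677, 2201, 1859 and 2209 in soluble TNF cells. The high arrays were control 1, control 3 and tmTNF 2, as for Slc7a5. Slc2a6, GLUT6, an intracellular member of the family known from activated myeloid cells, had 6.17, 4.42, 6.23 and 25 in controls, 6.53, 181, 306 and 243 in tmTNF cells and 24.4, 42.0, 258 and 60.6 in soluble TNF cells. It was under 100 on every control array and above 100 on 3 of 4 tmTNF arrays and 1 of 4 soluble TNF arrays. The tmTNF mean was at least 1.2-fold that of control (fitted log2 2.45 ± 0.83, adjusted p = 0.463), and the difference passed without tmTNF 1, at 3.33 (adjusted p = 0.0377).

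Slc2a10, GLUT10, whose loss causes arterial tortuosity in people, ran in the opposite direction. It had 90.2, 272, 126 and 249 in controls, 149, 29.4, 52.9 and 51.8 in tmTNF cells and 250, 230, 244 and 240 in soluble TNF cells. Every tmTNF array lay below every soluble TNF array (-1.74 ± 0.43, adjusted p = 0.0689), while the controls overlapped both. The difference passed without control 1 (-1.74, adjusted p = 0.0472) and without tmTNF 1 (-2.10, adjusted p = 0.0234). Slc2a8, GLUT8, an intracellular hexose transporter, had 416 to 665 in controls, 334 to 541 in tmTNF cells and 234 to 369 in soluble TNF cells, and its soluble TNF arrays lay below the controls (-0.77 ± 0.24, adjusted p = 0.272). Slc50a1, the SWEET family sugar carrier, had 1182 to 2360, 1116 to 2376 and 616 to 1084, so its soluble TNF arrays were the lowest 4 (-0.90 ± 0.30 against control, adjusted p = 0.286).

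Other carriers of the class were dim or showed single-group differences. Slc45a3, a relative of sucrose transporters, had 3.56, 6.33, 398 and 73.8 in controls, 170, 274, 145 and 134 in tmTNF cells and 6.63, 3.06, 2.96 and 65.3 in soluble TNF cells. All tmTNF arrays exceeded 100 and all soluble TNF arrays fell short of it (at least 1.64-fold, fitted log2 2.73 ± 0.88, adjusted p = 0.132). Slc5a6, the sodium-dependent multivitamin transporter for biotin and pantothenate, had 76.3 to 94.1 in controls, 101, 183, 189 and 203 in tmTNF cells and 65.5 to 124 in soluble TNF cells. Its tmTNF arrays lay just above all controls, which were under 100 (at least 1.55-fold, fitted log2 0.87 ± 0.30, adjusted p = 0.486). Slc16a6, a monocarboxylate transporter of the family that also exports lactate, had 51.1 to 139, 136 to 346 and 102 to 213, and Slc5a3, the myo-inositol carrier that protects against hypertonic stress, had 630 to 2219, 808 to 2264 and 1765 to 3071, with overlap in both.

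Of 27 carriers of metals and magnesium, 0 passed. At an unadjusted p under 0.05, 1 was higher and 0 lower with tmTNF, and 1 higher and 3 lower with soluble TNF, against control. In tmTNF against soluble TNF, 2 were higher and 0 lower. Of all genes the shares were 4.81% and 2.75%, 5.4% and 7.28%, and 12.4% and 7.49%. Slc39a4, the zinc importer ZIP4, had 34.0, 16.5, 4.62 and 72.8 in controls, 115, 110, 152 and 197 in tmTNF cells and 59.0, 48.6, 67.0 and 55.9 in soluble TNF cells. The 4 tmTNF arrays were the highest, and the other 8 were all under 100, so the difference from control is given as at least 1.34-fold (fitted log2 1.91 ± 0.45, adjusted p = 0.151). Slc39a13, a zinc transporter of the secretory pathway, had 299 to 576 in controls, 378 to 815 in tmTNF cells and 625 to 806 in soluble TNF cells, with soluble TNF above control (0.67 ± 0.26, adjusted p = 0.338). Slc39a1, the plasma membrane importer ZIP1, had 1576 to 2701, 1513 to 2004 and 1019 to 1608 (-0.62 ± 0.21 for soluble TNF, adjusted p = 0.299), and its lowest control fell inside the soluble TNF range.

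Iron and haem carriers differed in how much they varied between arrays of a group. Slc40a1, ferroportin, the iron exporter, had 3914, 1495, 112 and 189 in controls, 815, 93.5, 1644 and 28.2 in tmTNF cells and 41.4, 28.5, 55.2 and 139 in soluble TNF cells. Its within-group SD of 2.01 on the log2 scale was the highest of the 175 members, against a median of 0.48 over members and 0.45 over all genes, and a soluble TNF value of -3.11 ± 1.24 did not pass (adjusted p = 0.342). Cd68, a macrophage marker, had 18210, 520, 2285 and 255 in controls, 6728, 723, 4295 and 63.3 in tmTNF cells and 150 to 232 in soluble TNF cells, while Ptprc, the general leukocyte marker, stayed under 100 on all 12 arrays. The 10 leukocyte markers summed to 731 to 18663 in controls, 502 to 7298 in tmTNF cells and 484 to 636 in soluble TNF cells, with 7 of the 10 under 100 on every array. The part of such cells in the Slc40a1 values was not tested. Slc48a1, a haem carrier of lysosomes, had 1492 to 7802, 2151 to 3762 and 915 to 1809, with tmTNF above soluble TNF on every array (1.03 ± 0.44, adjusted p = 0.221). Slc11a1, the metal transporter NRAMP1 of phagosomes, had 90.0, 42.4, 72.9 and 92.6 in controls and 96.3, 103, 196 and 218 in tmTNF cells (at least 1.38-fold, fitted log2 0.87 ± 0.43, adjusted p = 0.706), and its soluble TNF arrays ran from 51.0 to 177. Slc11a2, the iron importer DMT1, had 387 to 685.6, 526 to 736 and 455 to 547.

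Mitochondrial carriers were the largest class and the steadiest. Of 34 Slc25 members 0 passed. At an unadjusted p under 0.05, all genes had 4.81% higher and 2.75% lower, 5.4% and 7.28%, and 12.4% and 7.49%. The 34 members had 2 higher and 0 lower, 2 and 0, and 1 and 1. The medians were 0.09, -0.03 and 0.11 for tmTNF against control, soluble TNF against control and tmTNF against soluble TNF, and the median within-group SD was 0.38, the lowest of the 7 transporter classes. Slc25a39, a carrier needed for mitochondrial glutathione, had 18320 to 23690 in controls, 17850 to 19100 in tmTNF cells and 15540 to 19660 in soluble TNF cells, a 1.52-fold range over 12 arrays. Slc25a22, a glutamate carrier, had 256, 299, 374 and 316 in controls, 556, 550, 398 and 458 in tmTNF cells and 313 to 472 in soluble TNF cells, with tmTNF above control on every array (0.63 ± 0.21, adjusted p = 0.461). Slc25a32, which carries folate and FAD, had 493, 580, 625 and 724 in controls and 836, 1099, 1051 and 871 in soluble TNF cells, without overlap (0.66 ± 0.21, adjusted p = 0.28). Its other 2 probe sets gave smaller values, 0.29 ± 0.34 and 0.53 ± 0.26. Slc25a13, citrin, the aspartate-glutamate exchanger of the malate-aspartate shuttle, had 231 to 341 in controls, 296 to 739 in tmTNF cells and 373 to 706 in soluble TNF cells, with values of 0.65 ± 0.29 and 0.64 ± 0.29. Slc25a4, the ADP-ATP carrier ANT1, and Slc25a15, the ornithine carrier, were the further members of this class whose soluble TNF arrays all lay above control, by 0.34 ± 0.19 and 0.44 ± 0.22. The soluble TNF arrays lay wholly above control for 4 of the 34 and wholly below for 0 (all genes 3.67% and 4.44%). Slc25a28, mitoferrin 2, had 776 to 1224, 640 to 1106 and 691 to 1170. Slc25a44, a branched-chain amino acid carrier, had 412 to 618 in tmTNF cells against 333 to 378 in soluble TNF cells (0.59 ± 0.24, adjusted p = 0.198).

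Of 22 carriers of nucleotide sugars and acetyl-CoA, 0 passed, and 17 had a negative value in soluble TNF against control, with a median of -0.30. Over all genes 5562 of 10269 were negative, and the median was -0.05. At an unadjusted p under 0.05, 4 of the 22 were lower and 1 higher there (all genes 7.28% and 5.4%). Slc35a1, which brings CMP-sialic acid into the Golgi, had 806, 840, 562 and 358 in controls, 592, 985, 797 and 793 in tmTNF cells and 453, 297, 373 and 408 in soluble TNF cells. The tmTNF arrays lay above all soluble TNF arrays (1.01 ± 0.28, adjusted p = 0.0946), and control 4 fell within the soluble TNF range. Slc35f5, an orphan member, had 3092, 1764, 2967 and 868 in controls against 864, 967, 824 and 825 in soluble TNF cells (-1.14 ± 0.35, adjusted p = 0.277). Without control 4, which lay inside the soluble TNF range, this was -1.53 (adjusted p = 0.0491). Slc35f6 had 551 to 665, 486 to 875 and 327 to 500, with soluble TNF below control (-0.47 ± 0.22), and tmTNF against soluble TNF was 0.74 ± 0.22 (adjusted p = 0.114), which passed without tmTNF 1 (0.93, adjusted p = 0.0452). Slc35a4 ran upward, with 774, 1003, 882 and 1532 in controls, 978 to 1663 in tmTNF cells and 2149, 1318, 1922 and 1805 in soluble TNF cells (0.80 ± 0.26, adjusted p = 0.281). Slc35e3 had 376 to 796, 699 to 946 and 514 to 750.

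Of 26 carriers of vitamins, nucleosides, lipids, peptides and organic ions, 0 passed, and 5 were lower at an unadjusted p under 0.05 after soluble TNF (7.28% of all genes were), with a class median of -0.35. Slc27a1, the fatty acid transport protein FATP1, had 386, 311, 326 and 233 in controls, 255, 1145, 2107 and 410 in tmTNF cells and 151, 78.7, 48.0 and 252 in soluble TNF cells. The tmTNF arrays were all above the soluble TNF arrays, tmTNF 1 only narrowly, and the difference of 2.51 ± 0.60 (adjusted p = 0.0661) passed without tmTNF 1 (2.99, adjusted p = 0.0278). Slc17a5, sialin, the exporter of sialic acid from lysosomes, had 496, 950, 426 and 321 in controls, 594, 384, 1013 and 310 in tmTNF cells and 125, 252, 232 and 256 in soluble TNF cells. Its soluble TNF arrays were the lowest 4 (-1.22 ± 0.41 against control, adjusted p = 0.292). Slc66a1, the lysosomal exporter of cationic amino acids, had 121 to 334 in controls, 260 to 384 in tmTNF cells and 98.2 to 203 in soluble TNF cells (tmTNF against soluble TNF 1.13 ± 0.32, adjusted p = 0.0965).

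Slc22a17, Slc52a3 and Slc44a2 had lower mean values in both TNF groups than in control. Slc22a17, a receptor for the iron-binding protein lipocalin 2, had 250.8, 210, 138 and 138 in controls, 107, 84.6, 81.2 and 108 in tmTNF cells and 117, 125, 106 and 103 in soluble TNF cells. All 8 TNF arrays lay below all 4 controls, by -0.81 ± 0.27 and -0.59 ± 0.27 (adjusted p = 0.46 and 0.4), and both comparisons share the controls. Slc52a3, a riboflavin transporter, had 523, 130, 90.3 and 199 in controls and at most 112 on the TNF arrays, so its values of -1.15 ± 0.46 and -1.04 ± 0.46 leaned on control 1. Slc44a2, a choline transporter-like protein of the endothelial surface, had 12120, 16350, 7463 and 10990 in controls, 17690, 5766, 13400 and 7281 in tmTNF cells and 6460, 6272, 7173 and 6055 in soluble TNF cells, with soluble TNF below every control (-0.80 ± 0.33, adjusted p = 0.355). Its probe sets disagreed: the other 2 gave -0.87 ± 0.42 and 0.00 ± 0.52 for soluble TNF against control, and the latter gave 0.79 ± 0.52 for tmTNF against control. Slc29a3, a nucleoside carrier of lysosomes, had 147 to 309, 249 to 515 and 154 to 368, and Slc18b1, a vesicular polyamine transporter, had 124 to 268 in controls, 0.954 to 237 in tmTNF cells and 109 to 219 in soluble TNF cells, with tmTNF 1 at the level of the controls.

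Of 20 transporters listed for known links to TNF or interferon, 16 were members. With soluble TNF 1 of the 16 passed, Slc12a2 (0.039% of all genes did), and in tmTNF cells 0 did (0.195% of all genes). The medians were -0.27 and 0.34 (-0.05 and 0.03 over all genes). The list was drawn up with earlier results of these data known, so these values are not independent of them. Slc39a14, the zinc and iron importer ZIP14 of the acute-phase response, had 1027, 354, 3739 and 570 in controls, 435, 4266, 699 and 1290 in tmTNF cells and 671, 422, 331 and 859 in soluble TNF cells. Its 3 highest arrays were the 3 with the lowest endothelial marker sums. Slc41a2, a magnesium transporter, had 217 to 1402, 254 to 953 and 253 to 670, with control 3 and tmTNF 2 highest. Slc15a3, a lysosomal histidine and peptide carrier induced by interferon, was not a member because it reached 100 on 2 arrays, with 8.03, 73.5, 312 and 612 in tmTNF cells and at most 57.5 elsewhere. Slc7a2 and Slc16a3 reached 100 on 0 and 1 arrays, and no probe set was named Slc28a2.

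Some members varied widely between arrays of a group. The 6 with the largest within-group SD were Slc40a1 (2.01), Slc35d1 (1.89), Slc12a5 (1.702), Slc9a3r2 (1.55), Slc7a3 (1.41) and Slc22a18 (1.36). Slc9a3r2, the scaffold NHERF2 that binds ion exchangers and is abundant in endothelium, had 6702, 8859, 302 and 5729 in controls, 6584, 973, 4307 and 1053 in tmTNF cells and 2303, 4201, 4565 and 3055 in soluble TNF cells. Its lowest arrays were control 3, tmTNF 2 and tmTNF 4, the 3 with the lowest endothelial marker sums and the highest Krt19. These 3 arrays were the lowest of the 12 for 5 members (2.86%) and the highest for 5 (2.86%), against 3.53% and 2.55% of all genes, shares close to each other. Slc39a10, a zinc importer, was at most 1241 on the 3 arrays and at least 1612 on the other 9, and Slc7a7, a light chain for cationic amino acids, at most 230.7 against at least 230.8. Slc10a6, a carrier of steroid sulfates, was at least 162 on the 3 arrays and at most 158 elsewhere.

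For other highly variable members, those 3 arrays were neither the 3 lowest nor the 3 highest. Slc35d1, which carries UDP-glucuronic acid into the endoplasmic reticulum, had 515, 276, 3.01 and 5.82 in controls, 376, 460, 268 and 393 in tmTNF cells and 18.8, 268, 323 and 3.21 in soluble TNF cells. It was at most 18.8 on 4 arrays, controls 3 and 4 and soluble TNF 1 and 4, the 4 arrays on which the collagen gene Col3a1 was brightest, at 1901 to 4547, against at most 159 elsewhere. Slc22a18, an organic cation carrier, ran from 9.04 to 307. Slc30a1, the zinc exporter ZNT1, had 2707, 2244, 240 and 969 in controls, 2113, 692, 1908 and 764 in tmTNF cells and 324, 998, 1446 and 506 in soluble TNF cells. It was lowest, at most 764, on control 3, tmTNF 2, tmTNF 4 and soluble TNF 1 and 4. Those arrays had endothelial marker sums of 23650 to 67935, against at least 100373 on the others. The collagen gene Col1a2 went with Col3a1, at 769 to 4009 on controls 3 and 4 and soluble TNF 1 and 4. Dcn, another fibroblast marker, did not. It had at most 27.7 on those arrays, and 3276 and 7271 on tmTNF 2 and 4. Of 12 listed fibroblast markers 5 stayed under 100 on every array. The part of fibroblast-like or mesothelial-like cells in the values of these members was not tested.

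**Figure D5:**
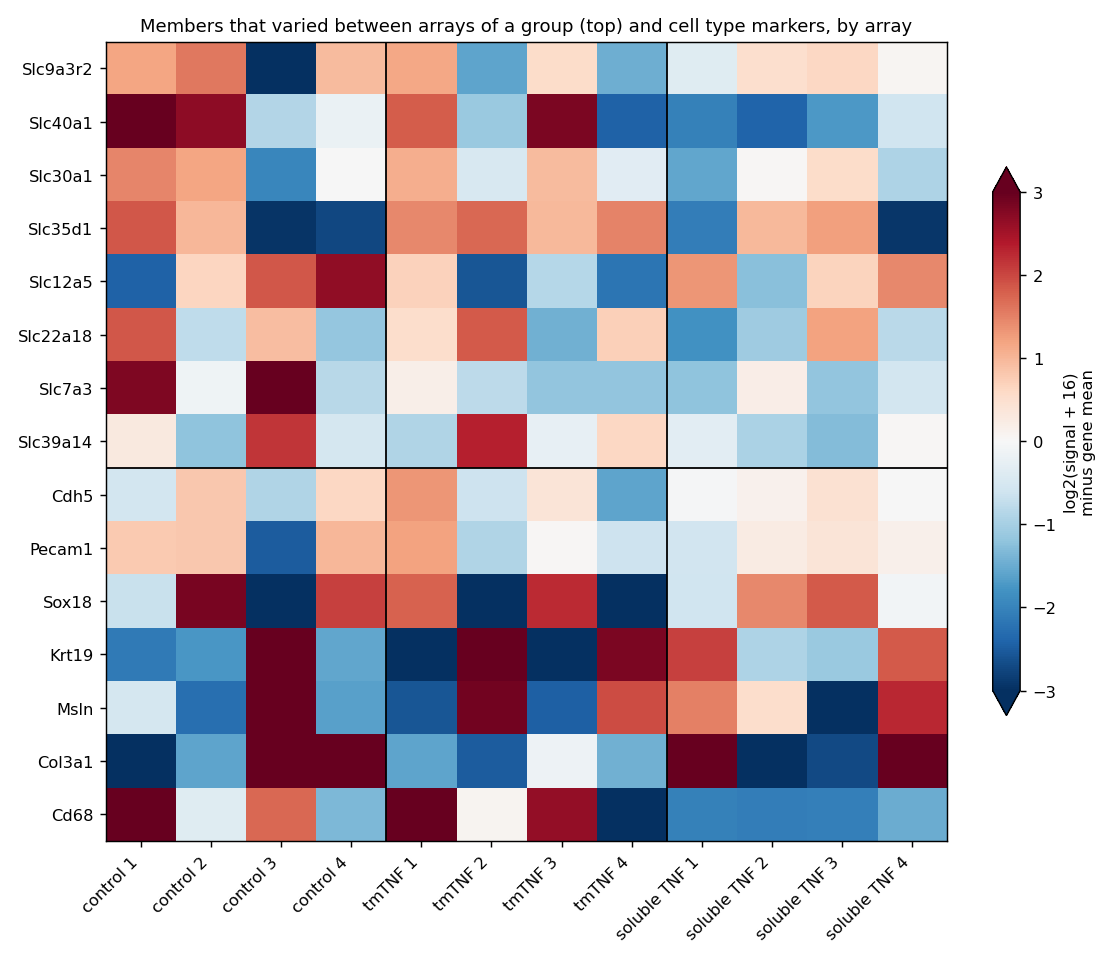
Heat map of log2(signal + 16) minus each gene's mean for 8 members with large spread between arrays and 7 cell type markers (rows) on the 12 arrays (columns); colours saturate at 3 in either direction. Slc9a3r2 is lowest where Sox18 and Pecam1 are low and Krt19 is high (control 3, tmTNF 2, tmTNF 4), and Slc35d1 is lowest where Col3a1 is high.

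Transporters of other families were measured beside them. Of 25 measured ABC and organic anion transporters, 8 were higher and 0 lower in tmTNF cells against control at an unadjusted p under 0.05 (all genes 4.81% and 2.75%). In that comparison 0 of the 25 passed (0.195% of all genes did). Against soluble TNF 1 of the 25 passed, Tap1, which loads peptides for MHC class I (1.22% of all genes passed there). Tap1 had 196 to 572 in controls, 657 to 1389 in tmTNF cells and 198 to 608 in soluble TNF cells (1.87 ± 0.41, adjusted p = 0.0495). Abcc3, an exporter of organic anions, had 72.4 to 546 in tmTNF cells and 4.17 to 16.1 in soluble TNF cells (at least 1.77-fold, fitted log2 3.09 ± 0.71, adjusted p = 0.0579). The list of these transporters was also drawn up with earlier results of these data known. Whether the 2 sets of transporters differ from each other was not tested.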

How the data were processed

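RNA from each of 12 samples, about 5 micrograms, was hybridised to its own Affymetrix mouse array, per the labels. The deposited values are linear signal intensities of single probe sets, which the authors computed with MAS5 per the submitters' processing notes; the version, the settings and any detection calls are not given in the sources used here. They ran from 0.1 to 95672, and each array had a 2% trimmed mean of 1000. The number of arrays limits the precision. No 2 arrays held identical values (highest correlation between arrays 0.983).

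Signals were multiplied per array to reach a 2% trimmed mean of 500, which may hide a shift of all genes together, and used as log2(signal + 16). The platform has 45101 probe sets. A gene symbol was unique for 34945 of them in the platform annotation, while 932 had several, 9160 none and 64 were controls. Probe sets were first filtered at a signal of 100 on at least 4 arrays, and the one with the highest mean log2 value then stood for its gene; choosing before filtering would have kept 174 members. Another filtered probe set existed for 75 members, and 13 were represented by a probe set whose name ends in _x_at or _s_at, which can match related genes. Group means, SD and ranges are of signals, and ± after a log2 value is its standard error.

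The 3 groups were fitted together in limma 3.58.1 under R 4.3.3 (lmFit and trended eBayes, two-sided). Benjamini-Hochberg adjustment ran over 10269 genes. The adjusted p-values are from this fit. The fit was checked on simulated data. A difference was written as "at least N-fold" where a group was under 100 on all arrays, since 100 stands in for the background. Fold changes on this scale understate those of dim genes. The members and all gene lists were chosen with earlier results of these data known.

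Named members were those past the threshold, up to 8 per direction and comparison with the smallest unadjusted p under 0.05, the 2 with the smallest p in each class and comparison, the 6 with the largest within-group SD and the listed TNF-linked carriers. Others were named after their values were seen: Slc12a4, Slc38a2, Slc1a5, Slc25a15, Slc25a39, Slc30a1, Slc35f2, Slc39a10, Slc7a7, Slc10a6, Lrrc8a, Lrrc8d, Stk39, Oxsr1, Asns, Trib3 and Chac1. Classes follow the family number, so a carrier can differ from its class, as Slc5a6 and Slc43a3 do. Alternatives were quantile, same-median and deposited scaling, a filter at 250 or none, pseudocounts of 1 and 64, other merging of probe sets, other eBayes settings, array weights, only the groups compared, each array left out and 3 arrays left out. Sequences are RefSeq's (GRCm38.p6). The deposited values name no build, so the only coordinates given are those of the 2 printed promoter stretches.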

Additional observations from a re-analysis of the deposited data

Results flagged for a closer look

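In 10 of 174 pairs of a named gene and a group, 1 array stood apart from its 3 companions by a gap that took up more of the group's range on the log2 scale than Dixon's 95% critical value for 4 samples. Chance gives this in about 1 of 20 groups. In tmTNF cells, array 1 was below the others for Slc11a2 (gap 0.951 of the range), Slc35f6 (0.833) and Slc5a6 (0.848), and array 2 was above the others for Slc1a4 (0.892). In controls, array 3 was below for Slc25a13 (0.93) and Slc9a3r2 (0.869), and array 4 was above for Slc2a6 (0.878). In soluble TNF cells, array 1 was below for Slc17a5 (0.859), array 3 below for Slc7a1 (0.891), and array 4 above for Slc45a3 (0.879). The Slc2a6 and Slc45a3 values all lay under 100, so their gaps are between dim signals. For Slc25a13 and Slc7a1 the groups' signals were close, at 231 against 332 to 341 and 2085 against 2450 to 2499.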

How the results depend on the processing

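Of 95 differences followed under 26 alternatives, 2362 of 2449 values kept both direction and side of the threshold, 41 changed direction, 15 lost the threshold and 31 gained it. The number of members past the threshold for soluble TNF against control, 1, became 0 with the mean of probe sets, without a trend, with only the 2 groups and without the 3 arrays of lowest endothelial signal, and ran from 0 to 2 with single arrays left out. For tmTNF against control it stayed 0 under every alternative except single arrays left out (0 to 1). For tmTNF against soluble TNF, 0 became 2 with the same median, 1 on the deposited scale, 1 without a filter, 14 with array weights, 9 with only the 2 groups, 1 without the 3 arrays, and 0 to 4 with single arrays left out. Fewer arrays enter where arrays are left out or only 2 groups are fitted. For the other settings the cause was not tested.

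Counts of members higher and lower at an unadjusted p under 0.05 also moved by over 1.5 times. In tmTNF against control, 12 and 5 became 6 and 5 with quantile scaling, 6 and 0 with the filter at 250, 8 and 2 with only the 2 groups, 7 and 3 without the 3 arrays and 17 and 8 of 347 without a filter. Those were 3.45% and 2.87%, 4.51% and 0%, 4.57% and 1.14%, 4% and 1.71%, and 4.9% and 2.31% of members. Of all genes they were 3.95% and 3.17%, 4.43% and 2.81%, 3.53% and 1.7%, 3.58% and 2.7%, and 4.68% and 2.37%. In soluble TNF against control, 5 and 25 became 11 and 28 of 347 without a filter. These were 3.17% and 8.07% of members, against 3.91% and 5.36% of all genes. In tmTNF against soluble TNF, 25 and 4 became 36 and 11 with array weights and 37 and 10 of 347 without a filter. With array weights these were 20.6% and 6.29% of members, against 17.1% and 13.4% of all genes. Without a filter they were 10.7% and 2.88%, against 9.69% and 5%.

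None of the values that changed direction had passed. Against control after soluble TNF, Slc41a2 became 0.24 with array weights and 0.34 without the 3 arrays, and Slc7a5 0.19 and 0.22. In tmTNF against control, Slc20a1 became 0.16 with the mean of probe sets, 0.10 with array weights and 0.19 without the 3 arrays, Slc6a6 -0.04 with the same median and -0.12 without the 3 arrays, and without those arrays Slc2a1 became -0.15, Slc39a14 -0.10 and Slc40a1 0.14. In tmTNF against soluble TNF, Slc41a2 became -0.057 without the 3 arrays and Slc6a6 0.21 with the mean of probe sets.

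With single arrays left out, values that crossed 0 ranged as follows. Against control after soluble TNF the ranges were Slc11a1 -0.069 to 0.44, Slc41a2 -0.53 to 0.34, Slc6a6 -0.26 to 0.51, Slc7a5 -0.84 to 0.22. In tmTNF against control they were Slc20a1 -0.30 to 0.35, Slc2a1 -0.083 to 0.72, Slc39a14 -0.36 to 0.93, Slc41a2 -0.092 to 0.78, Slc5a3 -0.53 to 0.084, Slc6a6 -0.33 to 0.34, Slc7a11 -0.36 to 1.08. In tmTNF against soluble TNF they were Slc25a28 -0.13 to 0.14, Slc6a6 -0.41 to 0.35. No paired analysis was possible because the labels carry no replicate numbers.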
